A study of Mus musculus with 6 samples.

Results

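The antioxidant and glutathione enzymes are the proteins that remove superoxide and peroxides and keep thiols reduced. Their 40 genes were listed by name from textbook enzyme families, by a rule that uses no measured value, though earlier results of these data were known when the list was made. Of these, 37 were measured on array features that carry a single gene symbol, and all 37 were bright enough to be tested. G6pdx, Prdx5 and Prdx6 are not analysed here. The whole series holds 19938 genes on such features, of which 14953 were tested. Hearts of C57BL/6J mice were taken at postnatal day 14, after 1 week of injections of ETX or of its vehicle, phosphate-buffered saline (PBS). Each group held 3 hearts that the labels call biological replicates, with 1 Affymetrix array per heart: PBS replicates 3, 9 and 12 and ETX replicates 6, 7 and 10. The labels give no genotype beyond the strain, no dose and no full name for ETX, an abbreviation in common use for etomoxir, which blocks the entry of long-chain fatty acids into mitochondria. RNA came from the whole heart, so every cell type of the organ contributed to each value. The comparison asks which of these enzymes differed in transcript level between ETX and PBS hearts.

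Superoxide arises as a by-product of respiration, and the heart, dense in mitochondria, makes it continuously. Superoxide dismutases turn it into hydrogen peroxide, which catalase, glutathione peroxidases and peroxiredoxins reduce to water. Peroxidases draw their electrons from glutathione or thioredoxin, which are recharged by reductases at the expense of NADPH. Glutathione transferases couple glutathione to lipid peroxidation products and foreign compounds. Many of these genes are induced by the transcription factor NRF2 (gene Nfe2l2), which is held down by KEAP1 and released under oxidative or electrophilic stress.

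Of the 37 enzymes 1 passed the threshold. Gstk1, the glutathione transferase of mitochondria and peroxisomes, fell 1.35-fold in ETX. The heme-degrading enzyme Hmox1 was 1.56-fold lower and the extracellular superoxide dismutase Sod3 1.22-fold higher, and neither passed. Levels are log2 signals as the authors normalized them, and differences are ETX minus PBS on that scale. A gene passed when its limma p, adjusted by Benjamini-Hochberg over all 14953 genes, was under 0.05. By this rule 0 of 37 enzymes rose and 1 fell, or 2.7%, beside 3.56% of all genes tested (1.14% higher and 2.43% lower). At an unadjusted limma p under 0.05, 3 were higher and 6 lower, or 24.3%, beside 21.9% of all genes (8.86% higher and 13.1% lower). In 10 enzymes the values of both groups did not overlap, 6 with ETX above and 4 with ETX below. That is 27% of them, beside 27.7% of all genes tested (11.6% above and 16.1% below). These shares lie close to those of all genes. The median difference of the 37 was -0.03, with 13 above 0 and 24 below, and that of all genes -0.0063, with 7234 above 0 and 7719 below. The differences ran from -0.64 for Hmox1 to 0.31 for Prdx4. Averaged over the 37 genes, the hearts stood at 7.77, 7.81 and 7.74 in PBS replicates 3, 9 and 12 and at 7.77, 7.70 and 7.68 in ETX replicates 6, 7 and 10, so the groups overlapped. Hearts are given in this order throughout. When 1 heart was left out, Gstk1 no longer passed in any of 6 fits. In the fit without PBS replicate 12 Hmox1 passed. The other 5 fits had 6 to 8 enzymes at an unadjusted limma p under 0.05, beside 2423 to 2941 of 14953 genes. They called 0 enzymes. Without PBS replicates 3 and 9, whose lung markers were high, the count was 0 (7 at an unadjusted limma p under 0.05).

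**Figure D1:**
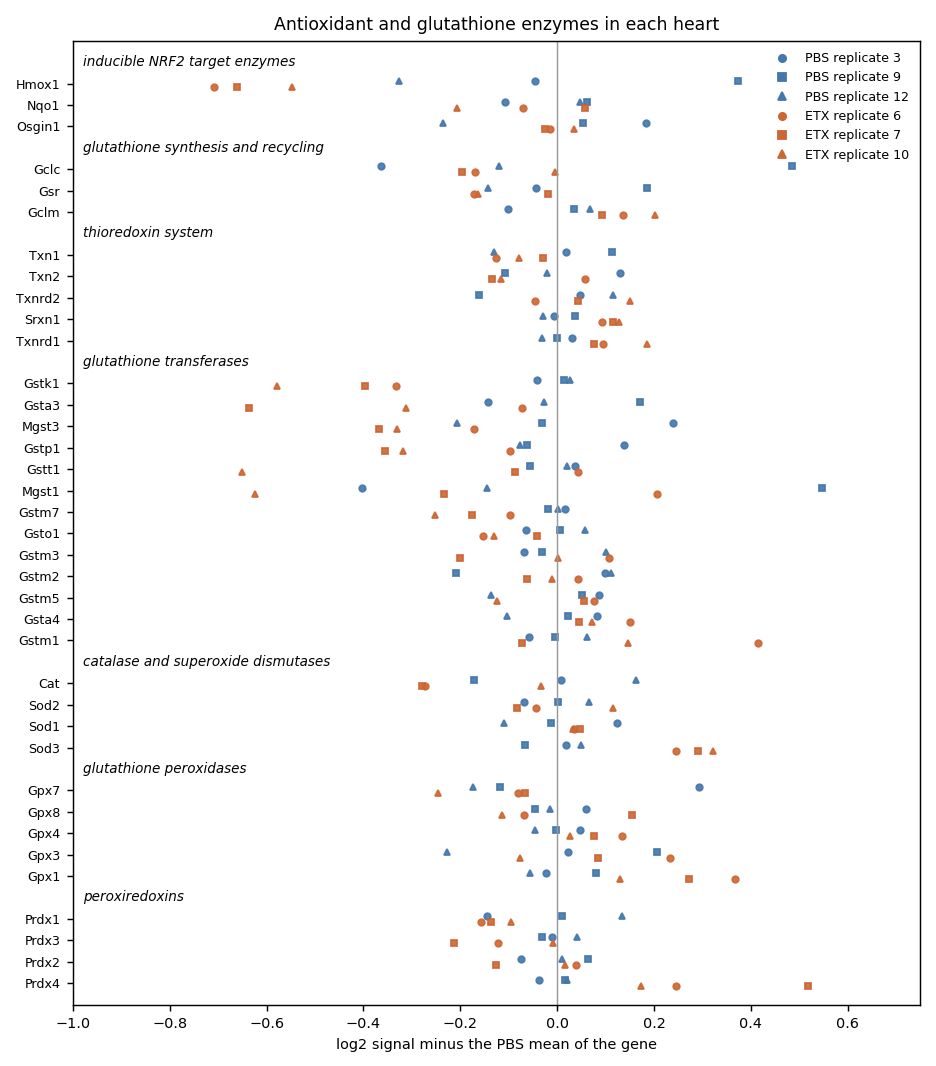
Each row is 1 of the 37 enzymes, ordered by family, and each point is 1 heart: log2 signal minus the mean of the 3 PBS hearts of that gene, with PBS in blue and ETX in orange. Most rows mix both colours around 0. Gstk1, Hmox1, Gstp1 and Gstm7 have their 3 ETX points to the left of all PBS points. Sod3, Gpx1, Prdx4, Gclm, Txnrd1 and Srxn1 have them to the right. That is 27% of the rows, beside 27.7% of all genes tested.

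The arrays had medians between 4.43 and 4.51 and correlated at 0.985 to 0.994 across features. Markers of 8 cell types showed that the hearts were not equal in tissue makeup. The 11 cardiomyocyte markers averaged 12.03 to 12.07 in PBS and 11.95 to 12.08 in ETX. Lung epithelium markers (11 measured) averaged 7.03 in PBS replicate 9 and 5.67 in PBS replicate 3, against 3.41 in PBS replicate 12 and 3.51 to 3.58 in ETX. Atrial markers (8) averaged high in PBS replicate 3 (8.05) and ETX replicates 6 and 7 (7.53 and 7.60) and lay between 5.79 and 6.24 in the other hearts. Single markers departed from this mean. Nppa was also high in ETX replicate 10 (11.89, against 9.28 and 9.04 in PBS replicates 9 and 12). Bmp10 was high in PBS replicate 3 alone (7.71). Macrophage markers (15) averaged 6.75 to 7.01 in PBS and 6.38 to 6.45 in ETX. Of these 6 of 15 were called lower, or 40%, beside 2.43% of all genes. Endothelial markers (12) averaged 8.63 to 8.65 and 8.29 to 8.42, with 4 called lower (33.3%). Fibroblast markers (11) averaged 9.20 to 9.37 and 9.05 to 9.16, with 1 called lower (9.09%). Of 14 red cell markers 6 were measured, at 5.47 to 5.63 in PBS and 5.79 to 5.88 in ETX. Of the 5 tested 2 rose, or 40%, beside 1.14% of all genes. Fat markers (7) averaged 3.76 to 3.96 and 3.90 to 4.29. No defining marker can be given as absent, because these values hold no detection call.

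The inducible NRF2 targets were Nqo1, Hmox1 and Osgin1, and 0 of 3 passed (1 at an unadjusted limma p under 0.05, Hmox1). Hmox1, which breaks heme down to biliverdin, iron and carbon monoxide and is strong in macrophages that clear red cells, stood at 6.08, 6.5 and 5.80 in PBS and 5.42, 5.47 and 5.58 in ETX. All 3 ETX hearts lay below all PBS hearts, and PBS replicate 9 was the highest. The means were 6.13 ± 0.35 and 5.49 ± 0.08 (SD, n = 3 per group), a difference of -0.64 (95% interval -1.0 to -0.28, limma adjusted p = 0.0667). The macrophage score was 0.45 lower in ETX and the lung score highest in PBS replicate 9. With the lung score in the fit the difference of Hmox1 was -0.30 (limma adjusted p = 0.214). Without PBS replicates 3 and 9, which leaves PBS replicate 12 as the single PBS heart, it was -0.31. These are not separate checks. Only PBS replicate 12 had a lung score (3.41) near those of the ETX hearts (3.51 to 3.58). Fits with the lung score, here and below, therefore also rest largely on PBS replicate 12. In whole tissue, fewer cells of a type and less RNA per cell cannot be told apart. Hmox1 passed without PBS replicate 12 (limma adjusted p = 0.0388). The quinone reductase Nqo1, the usual readout of NRF2 activity, stood at 5.89, 6.06 and 6.04 in PBS and 5.92, 6.05 and 5.79 in ETX. The groups overlapped, with ETX replicate 10 below all PBS hearts. Its difference was -0.07, with a 95% interval of -0.28 to 0.13. Osgin1, an oxidative stress-induced growth inhibitor, differed by -0.0020 (95% interval -0.25 to 0.24).

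In glutathione synthesis and recycling, 0 of 3 measured genes passed, and 0 had an unadjusted limma p under 0.05. Gclm is the modifier subunit of glutamate-cysteine ligase, which makes the rate-limiting step of glutathione synthesis. It stood at 6.88, 7.01 and 7.05 in PBS and 7.11, 7.07 and 7.18 in ETX. The ETX hearts lay just above the PBS hearts, with a difference of 0.14 (95% interval -0.02 to 0.31, limma adjusted p = 0.294). Gclc, the catalytic subunit of the same enzyme, stood at 5.83, 6.68 and 6.07 in PBS and 6.02, 6.00 and 6.19 in ETX. PBS replicate 9 was highest and PBS replicate 3 lowest. These hearts had the highest (7.03) and next highest (5.67) lung scores, and PBS replicate 9 also had the highest macrophage score (7.01). The part of either tissue in the level of Gclc, or of Gsr and Mgst1 below, was not tested. The difference of Gclc moved from -0.12 over all hearts to 0.12 without PBS replicate 9 and to -0.31 without PBS replicate 3. Neither fit called it. Glutathione reductase, Gsr, which returns oxidized glutathione to its reduced form, stood at 6.79, 7.02 and 6.69 in PBS and 6.66, 6.81 and 6.67 in ETX. It was likewise highest in PBS replicate 9. Its difference was -0.12 over all hearts and -0.03 without that heart.

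Of the 5 thioredoxin genes 0 passed, and 0 had an unadjusted limma p under 0.05. Srxn1, the sulfiredoxin that repairs overoxidized peroxiredoxins, stood at 5.62, 5.66 and 5.60 in PBS and 5.72, 5.74 and 5.75 in ETX. The spread within each group was narrow, and the difference was 0.11 (95% interval -0.03 to 0.25, limma adjusted p = 0.328). Txnrd1, the cytosolic thioredoxin reductase and a selenoprotein, stood at 6.83, 6.80 and 6.77 in PBS and 6.90, 6.88 and 6.99 in ETX. As with Gclm and Srxn1, its ETX hearts lay just above its PBS hearts (difference 0.12, limma adjusted p = 0.333). Cytosolic thioredoxin Txn1 differed by -0.08, mitochondrial thioredoxin Txn2 by -0.07 and its reductase Txnrd2 by 0.05, all with overlap.

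Gclm, Srxn1 and Txnrd1 are known NRF2 targets whose ETX hearts lay just above their PBS hearts, without passing. The bases before their starts are given here beside those of Gstk1 and of Nfe2l2 itself. They do not stand for all NRF2 targets: Hmox1 (-0.64) and Nqo1 (-0.07) lay below 0 and are not shown. Promoters of 34 of the 40 enzymes were found in a RefSeq table (GRCm38.p6) that holds the 250 bases before and the 50 bases after each annotated start. The capitals rest on a pair of motifs searched on both strands: the core of the antioxidant response element, TGACNNNGC, to which NRF2 binds with small MAF proteins, and the AP-1 site, TGANTCA, which can overlap it. The 250 bases before each start are written 5′ to 3′ on the gene's strand, with matches to either motif in capitals.
Gclm, chr3:122245307-122245556, plus strand: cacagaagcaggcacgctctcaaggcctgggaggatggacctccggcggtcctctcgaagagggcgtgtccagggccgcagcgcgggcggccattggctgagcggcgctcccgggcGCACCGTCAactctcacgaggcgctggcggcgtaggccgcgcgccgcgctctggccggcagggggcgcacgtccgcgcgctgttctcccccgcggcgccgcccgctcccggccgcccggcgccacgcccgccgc
Srxn1, chr2:152105274-152105523, plus strand: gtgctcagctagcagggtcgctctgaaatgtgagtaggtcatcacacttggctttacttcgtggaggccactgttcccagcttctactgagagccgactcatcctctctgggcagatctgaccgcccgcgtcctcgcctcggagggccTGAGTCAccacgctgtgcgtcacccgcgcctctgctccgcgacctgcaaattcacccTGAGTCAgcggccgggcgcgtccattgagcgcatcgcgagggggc
Txnrd1, chr10:82858956-82859205, plus strand: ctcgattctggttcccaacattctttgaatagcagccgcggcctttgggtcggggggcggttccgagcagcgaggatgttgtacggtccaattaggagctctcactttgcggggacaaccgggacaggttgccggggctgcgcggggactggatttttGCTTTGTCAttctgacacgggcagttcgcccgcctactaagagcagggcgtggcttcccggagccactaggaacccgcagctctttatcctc
Gstk1, chr6:42245685-42245934, plus strand: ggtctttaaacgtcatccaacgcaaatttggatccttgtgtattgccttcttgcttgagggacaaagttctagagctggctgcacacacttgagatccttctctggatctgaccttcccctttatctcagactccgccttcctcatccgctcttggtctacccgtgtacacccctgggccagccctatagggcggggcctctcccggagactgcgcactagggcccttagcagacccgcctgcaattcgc
Nfe2l2, chr2:75704664-75704913, minus strand: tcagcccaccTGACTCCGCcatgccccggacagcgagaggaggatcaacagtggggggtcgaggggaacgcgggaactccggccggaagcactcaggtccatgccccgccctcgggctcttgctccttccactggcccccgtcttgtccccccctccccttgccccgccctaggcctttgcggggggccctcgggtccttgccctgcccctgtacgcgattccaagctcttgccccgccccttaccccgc

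The Gclm window holds 1 antioxidant response element core, read as TGACGGTGC on the opposite strand and starting 134 bases before the gene's start. In Txnrd1, which has several annotated starts, the window shown is the one with a match, TGACAAAGC on the opposite strand, 92 bases before the start. Srxn1 has AP-1 matches (TGAGTCA) 102 and 45 bases before its start. Its only match to TGACNNNGC, TGACCTAGC, lies 28 bases after the start, outside the stretch shown. Forms of the element with another letter in place of the first C were not searched. The Nfe2l2 window holds TGACTCCGC at 240 bases before the start, and that of Gstk1 holds neither motif. Over all windows of this length, 12.4% held the core and 7.81% the AP-1 site, and 23.8% and 11.9% of the 42 windows of the enzymes did. By gene, 10 of 34 enzymes had a core match in any window, or 29.4%, beside 14% of all 27025 genes in the table. Of these 10, 9 were tested: 5 lay above 0 and 4 below (Gsta3, Gstm7, Mgst1 and Prdx1, whose sequences are not shown), with 0 called. Of the 24 enzymes without one, 23 were tested, 6 above 0 and 17 below, with Gstk1 called. Sequence beyond these windows was not searched, and the NRF2 target Nqo1 is counted among those without a match. Hmox1, Gclc, Gsr, Gsta4, Sod3 and Prdx6 had no promoter in the table and are in neither set. Of those tested, Hmox1, Gclc and Gsr lay below 0 and Gsta4 and Sod3 above. A difference between the sets was not tested. The direct repeat of AGGTCA with 1 base between, to which PPAR receptors bind, was found in 0 of 42 windows, beside 0.0396% of all windows, a share too low for 42 windows to show a difference. The E-box CACGTG was in 1, that of Prdx4, or 2.38%, beside 7.15% of all windows. A match is a run of letters and shows no binding.

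Of the 13 glutathione transferases, 10 lay below 0 and 3 above, with a median of -0.18 beside -0.0063 for all genes, and 1 fell. At an unadjusted limma p under 0.05, 5 were lower and 0 higher, or 38.5%, beside 13.1% lower and 8.86% higher over all genes. Their mean level was 7.49, 7.52 and 7.47 in PBS and 7.5, 7.30 and 7.25 in ETX, so ETX replicate 6 lay inside the PBS range and ETX replicates 7 and 10 below it. Gstk1, whose product sits in mitochondria and peroxisomes apart from the cytosolic enzymes, stood at 8.29, 8.34 and 8.36 in PBS and 8.0, 7.93 and 7.75 in ETX. The PBS hearts lay close together, and all ETX hearts lay lower. Its means were 8.33 ± 0.04 and 7.89 ± 0.13 (SD, n = 3 per group), a difference of -0.44 (SE 0.08, 95% interval -0.62 to -0.25, limma adjusted p = 0.0318). Without 1 heart the difference ran from -0.49 to -0.37 and Gstk1 did not pass in any of the 6 fits (limma adjusted p 0.0557 to 0.102, the highest when ETX replicate 7 was left out). With the lung score in the fit it was -0.45 (limma adjusted p = 0.121), and with sex in the fit -0.42 (0.0847). The labels used here give no sex, and it was read from the Xist signal, high in 1 of 3 PBS hearts and 2 of 3 ETX hearts.

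Gstp1, the abundant pi-class transferase, stood at 9.26, 9.06 and 9.04 in PBS and 9.02, 8.76 and 8.80 in ETX. The groups met at their edges without overlap, and the difference was -0.26 (95% interval -0.48 to -0.04, limma adjusted p = 0.166). A pair of further features annotated to both Gstp1 and Gstp2 differed by -0.29 and -0.31. The mu-class gene Gstm7 stood at 7.22, 7.18 and 7.2 in PBS and 7.10, 7.02 and 6.95 in ETX. Its ETX hearts were all lower, by a small amount (difference -0.18, limma adjusted p = 0.179).

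The microsomal transferase Mgst3 had a difference of -0.29 (limma adjusted p = 0.198), with 9.74 in PBS replicate 3 and 9.13 in ETX replicate 7 as its extremes. ETX replicate 6 (9.33) lay inside the PBS range, and without PBS replicate 3 the difference was -0.17. The alpha-class Gsta3 stood at 5.74, 6.06 and 5.86 in PBS and 5.81, 5.25 and 5.57 in ETX, with ETX replicate 6 inside the PBS range (difference -0.34, limma adjusted p = 0.217). It was -0.19 without ETX replicate 7. Mgst1, which protects membranes from lipid peroxides, was the most scattered enzyme, with 6.13, 7.07 and 6.38 in PBS and 6.73, 6.29 and 5.90 in ETX. Its highest value was again that of PBS replicate 9, and the difference went from -0.22 over all hearts to 0.06 without that heart. PBS replicate 3, also high in lung markers, had the lowest PBS value of Mgst1.

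Gstt1, of the theta class, was even in 5 hearts (5.73 to 5.86) and low in ETX replicate 10 alone (5.17). Its difference of -0.23 shrank to -0.02 without that heart. The remaining transferases Gsta4, Gstm1, Gstm2, Gstm3, Gstm5 and Gsto1 differed by -0.11 to 0.16 and overlapped between the groups. Gstm1 was the highest of these differences, with 9.15 in ETX replicate 6 against 8.66 to 8.88 in the other ETX hearts and 8.68 to 8.80 in PBS. The mu-class genes lie in a cluster of near-identical copies, so probes for one can catch RNA of another, and their values are uncertain in that respect. For Gstm3 the second feature differed by 0.07, opposite in sign to the -0.03 of the brighter one.

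**Figure D2:**
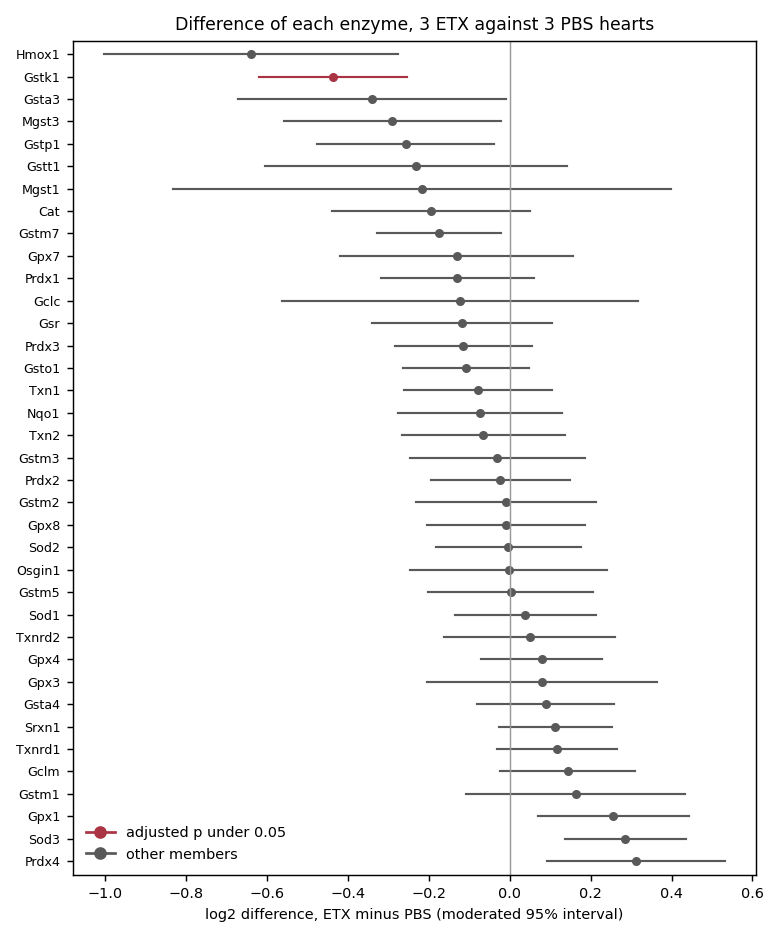
Points are log2 differences (ETX minus PBS) of the 37 enzymes in order of size, with moderated 95% intervals over 3 hearts per group, and red marks an adjusted p under 0.05. Gstk1 is the only red point, and Hmox1, at -0.64, is farther from 0 but has a wider interval.

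Among catalase and the superoxide dismutases 0 of 4 passed, with 1 at an unadjusted limma p under 0.05. Sod3, the dismutase secreted into the matrix of vessel walls, stood at 6.48, 6.40 and 6.51 in PBS and 6.71, 6.76 and 6.79 in ETX. The groups did not overlap, and each had a narrow spread. The means were 6.47 ± 0.06 and 6.75 ± 0.04 (SD, n = 3 per group), a difference of 0.29 (95% interval 0.14 to 0.44), and it was not called (limma adjusted p = 0.0555). It passed with a further quantile normalization (limma adjusted p = 0.0374) and did not with arrays centred on their median (0.0915). Catalase, Cat, the peroxisomal enzyme that splits hydrogen peroxide, stood at 10.61, 10.43 and 10.77 in PBS and 10.33, 10.32 and 10.57 in ETX. ETX replicate 10 overlapped the PBS hearts, and the difference of -0.20 (95% interval -0.44 to 0.05) was -0.36 without PBS replicates 3 and 9. The mitochondrial manganese dismutase Sod2 stood at 10.54, 10.61 and 10.68 in PBS and 10.57, 10.53 and 10.73 in ETX and did not separate the groups (95% interval of the difference -0.18 to 0.18). The cytosolic copper-zinc dismutase Sod1 differed by 0.04 (-0.14 to 0.21).

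Of 5 glutathione peroxidases 0 passed, with 1 at an unadjusted limma p under 0.05. Gpx1, the main selenium-dependent peroxidase of cytosol and abundant in red cells, stood at 8.82, 8.92 and 8.78 in PBS and 9.21, 9.11 and 8.97 in ETX. All ETX hearts were above all PBS hearts, the nearest being ETX replicate 10 and PBS replicate 9 (difference 0.26, 95% interval 0.07 to 0.44, limma adjusted p = 0.123). The red cell markers were higher in ETX as well: Alas2, the heme synthesis enzyme of red cell precursors, averaged 7.91 in PBS and rose to 8.49 in ETX (limma adjusted p = 0.0348). The anion exchanger Slc4a1 rose from 6.45 to 7.09 (0.0385). Epb42, Bpgm and Ermap, the other tested red cell markers, differed by 0.25, 0.27 and 0.0011, without passing. Their part in the level of Gpx1 was not tested. Gpx4, which reduces lipid hydroperoxides in membranes, differed by 0.08, and its second feature by 0.09. The secreted peroxidase Gpx3 differed by 0.08, and Gpx7 and Gpx8, of the endoplasmic reticulum, by -0.13 and -0.01, all with overlap.

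Peroxiredoxins reduce peroxides through a reactive cysteine, and 0 of the 4 measured passed, with 1 at an unadjusted limma p under 0.05. Prdx4, the member of the endoplasmic reticulum, where it feeds disulfide formation in secreted proteins, stood at 7.23, 7.28 and 7.29 in PBS and 7.51, 7.78 and 7.44 in ETX. PBS hearts were tight and ETX replicate 7 was highest. The difference was 0.31 (95% interval 0.09 to 0.53, limma adjusted p = 0.114), and 0.21 without ETX replicate 7. Prdx1 of the cytosol differed by -0.13, with the second feature at -0.16, and Prdx3 of mitochondria by -0.11. Prdx2, the abundant red cell member, differed by -0.02 on its brighter feature and by 0.11 on the other, with no separation of the groups.

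By compartment, the 3 enzymes of the endoplasmic reticulum membrane (Hmox1, Mgst1 and Mgst3) all lay below 0, with a median of -0.29, and 0 passed. At an unadjusted limma p under 0.05 there were 2 of these 3, or 66.7%, beside 21.9% of all genes. In PBS replicates 3, 9 and 12 their mean level was 7.32, 7.68 and 7.16, and in ETX 7.16, 6.96 and 6.89. PBS replicate 12 and ETX replicate 6 met at 7.16. With the lung score in the fit the difference of Mgst1 was 0.07, that of Mgst3 -0.17 and that of Hmox1 -0.30. Without PBS replicates 3 and 9, which leaves PBS replicate 12 as the single PBS heart, that of Mgst3 was -0.08. It was -0.39 without PBS replicate 12. The 5 mitochondrial enzymes (Txn2, Txnrd2, Sod2, Prdx3 and Gstk1) had a median of -0.07, with 4 below 0, and Gstk1 was the one that fell. In the lumen of the endoplasmic reticulum Prdx4 lay above 0 and Gpx7 and Gpx8 below. Both secreted enzymes, Sod3 and Gpx3, lay above 0. The 21 measured cytosolic enzymes had a median of -0.02, with 8 above 0 and 13 below, and 0 passed. At an unadjusted limma p under 0.05, 1 was higher and 3 lower, or 19%, beside 21.9% of all genes.

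**Figure D3:**
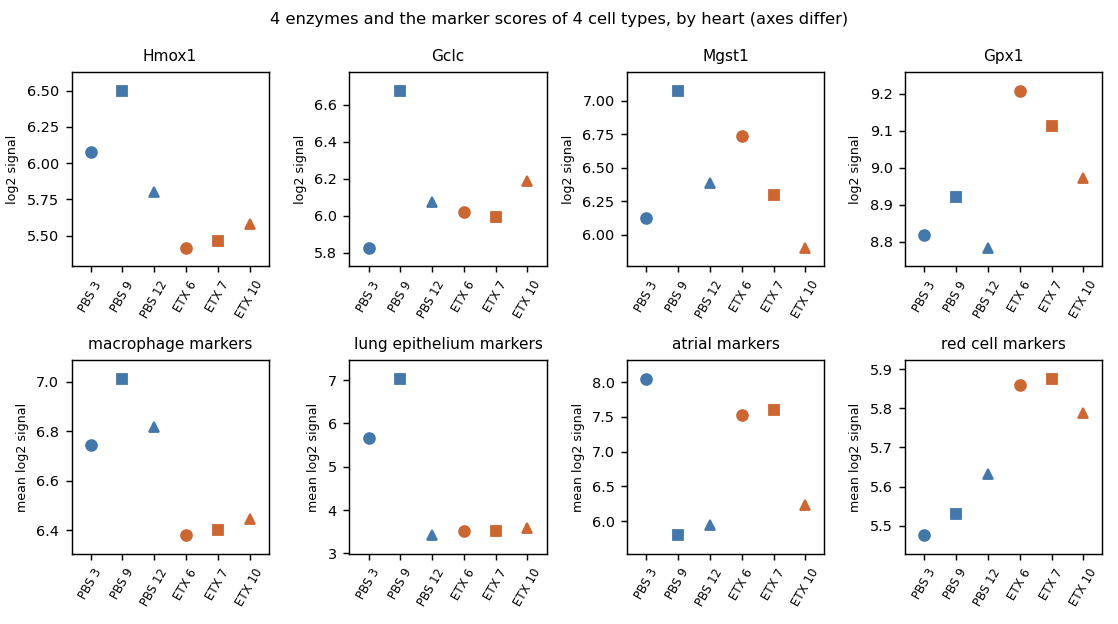
The upper row plots the log2 signal of Hmox1, Gclc, Mgst1 and Gpx1 in each heart, and the lower row the mean log2 signal of the macrophage, lung, atrial and red cell markers, each panel with its own axis. PBS replicate 9 is the highest heart for Hmox1, Gclc, Mgst1 and the lung score (7.03). PBS replicate 3, with the next highest lung score (5.67), is the lowest heart for Gclc (5.83). It lies below PBS replicate 12 for Mgst1 (6.13) and above it for Hmox1 (6.08). ETX hearts are highest for Gpx1 and the red cell score and lowest for Hmox1 and the macrophage score.

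Beyond the enzymes, 156 genes around the same chemistry were listed by role, and 136 of them were tested. Of these, 2 rose and 9 fell, or 8.09%, beside 3.56% of all genes, and their median was -0.06. Among 12 tested regulators of the KEAP1-NRF2 pathway 1, or 8.33%, fell: Nfe2l2, which encodes NRF2. It stood at 8.65, 8.77 and 8.91 in PBS and 8.31, 8.24 and 8.45 in ETX. Each ETX heart lay below each PBS heart, and Nfe2l2 was 1.36-fold lower (difference -0.44, 95% interval -0.65 to -0.23, limma adjusted p = 0.0420). It did not pass in any of the 6 fits without 1 heart (limma adjusted p 0.0655 to 0.146) and was -0.53 with the lung score in the fit (0.0976) and -0.44 with sex in the fit (0.105). Bach1, the repressor that competes with NRF2, differed by -0.23 without passing (limma adjusted p = 0.121), and Keap1 by 0.06 (0.693).

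Of the 18 tested genes of glutathione turnover and transport 1 rose and 1 fell, or 11.1%, beside 3.56% of all genes. Anpep, the membrane aminopeptidase that splits cysteinylglycine, fell 1.61-fold (limma adjusted p = 0.00857), from 7.64, 7.44 and 7.45 in PBS to 6.80, 6.91 and 6.75 in ETX. Hagh, glyoxalase II, which frees glutathione from lactoylglutathione, rose 1.30-fold (0.0323) with 7.74, 7.68 and 7.57 in PBS and a very even 8.05, 8.04 and 8.03 in ETX. Of 17 genes of NADPH supply 1 rose and 2 fell, or 17.6%, all mitochondrial. The folate enzyme Mthfd2 rose 1.52-fold (limma adjusted p = 0.0394), with 5.05, 5.38 and 4.98 in PBS and 5.64, 5.91 and 5.68 in ETX. Aldh1l2, a later enzyme of the same folate pathway that yields NADPH, fell 1.43-fold (0.0496), with 5.78, 5.53 and 5.73 in PBS and 5.34, 5.19 and 4.94 in ETX. Malic enzyme Me3 fell 1.36-fold (0.0271), from a very even 8.77, 8.78 and 8.78 in PBS to 8.39, 8.21 and 8.41 in ETX. The related Me2 was 0.33 higher without passing (0.0567).

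Among 24 tested glutaredoxins, thioredoxin partners and methionine sulphoxide reductases, Sesn1, a stress-induced sestrin, fell 1.25-fold (limma adjusted p = 0.0394) and 0 rose. That is 4.17%, beside 3.56% of all genes. Selenop, the plasma carrier of selenium, was 0.45 lower without passing (0.0567). Detoxication enzymes had 3 falls and 0 rises in 23, or 13%, beside 3.56% of all genes. These were the sulfide quinone reductase Sqor (1.53-fold, limma adjusted p = 0.00842), the carbonyl reductase Cbr2 (2.09-fold, 0.0144) and the mitochondrial aldehyde dehydrogenase Aldh2 (1.38-fold, 0.0428). Cbr2, which lung tissue holds in abundance, stood at 8.31, 8.12 and 7.89 in PBS and 7.34, 6.82 and 6.96 in ETX. With the lung score in the fit its difference was -0.93 (limma adjusted p = 0.0904), against -1.07 over all hearts. Macrophage markers were lower in the same ETX hearts, with 6 of 15 called, and their part in the level of Cbr2 was not tested. Aldh2 clears the lipid aldehyde hydroxynonenal, and it stood at 8.89, 8.85 and 9.13 in PBS and 8.61, 8.41 and 8.47 in ETX. Of 17 sources of reactive oxygen 1 fell, or 5.88%. It was the monoamine oxidase Maob of the outer mitochondrial membrane, which makes hydrogen peroxide (1.85-fold, limma adjusted p = 0.0184). Maob stood at 6.55, 6.33 and 6.47 in PBS and 5.84, 5.54 and 5.31 in ETX. Cybb, the phagocyte oxidase subunit, was 0.85 lower without passing (limma adjusted p = 0.122). The macrophage markers were lower beside it, and their part was not tested. Of 12 other glutathione transferases and peroxidases and of 13 genes of heme, iron and metal handling 0 passed. At an unadjusted limma p under 0.05 there were 5 and 2, or 41.7% and 15.4%, beside 21.9% of all genes. Without 1 heart, Anpep and Sqor passed in all 6 fits, Cbr2 and Maob in 3 and Mthfd2 in 1. Nfe2l2, Hagh, Me3, Aldh1l2, Sesn1 and Aldh2 passed in 0 of them, with differences that kept their sign in all 6 fits. These ran from -0.51 to -0.38 for Nfe2l2, 0.33 to 0.42 for Hagh, -0.47 to -0.37 for Me3, -0.61 to -0.41 for Aldh1l2, -0.35 to -0.30 for Sesn1 and -0.52 to -0.37 for Aldh2. With the lung score in the fit 1 of the 136 genes passed, and without PBS replicates 3 and 9 the count was 0 (28 at an unadjusted limma p under 0.05).

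**Figure D4:**
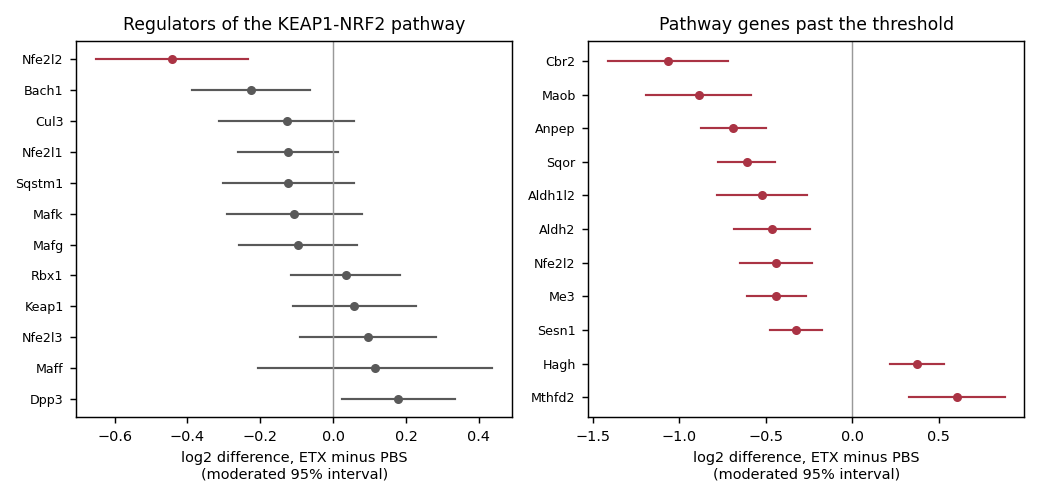
Left, log2 differences (ETX minus PBS) with moderated 95% intervals of the 12 tested regulators of the KEAP1-NRF2 pathway. Right, the same for the 11 listed pathway genes past the threshold, marked in red as on the left: 9 lie below 0 and Hagh and Mthfd2 above.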

How the data were processed

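Total RNA of 6 hearts was hybridised to Affymetrix arrays. The deposited log2 values were made by the authors with Affymetrix Expression Console and RMA (background correction, quantile normalization, median polish), per the submitters' processing notes, with no version named. RMA gives all arrays nearly one distribution, and differences of dim genes come out small. Of 35556 features 21789 carried 1 gene symbol in a platform table. Each gene took its brightest such feature, and genes with a mean under the lower quartile (3.45) were left out. A two-sided limma fit (version 3.58.1 under R 4.3.3, with lmFit then eBayes) set ETX against PBS, with p adjusted over 14953 genes, and only the enzymes' and listed genes' values were read. The fit was tested on simulated data. Intervals are moderated and at 95%. The number of arrays limits the precision. Enzymes and gene lists were chosen with earlier results of these data known, so lists are described by counts and medians and not tested. Hearts were named in full for enzymes past the threshold, for those without overlap at an unadjusted p under 0.05 and for the smallest p per family, and of the other lists the genes past the threshold are named, up to 4 per list. Further enzymes and genes, Txnrd1, Gclc and Selenop among them, were given values after these had been seen. Scores are mean log2 values of a list in a heart. Plots used Python 3.11.15 and matplotlib 3.10.9.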

Additional observations from a re-analysis of the deposited data

How the results depend on the processing

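The count of enzymes called, 1 as reported, was 3 with a median filter on dim genes and with an intensity trend in eBayes (Gstk1, Hmox1 and Sod3), 2 with arrays centred on their median (Gstk1 and Hmox1) and 2 after a further quantile normalization (Gstk1 and Sod3). It was 0 with an unmoderated test, with the lung, atrial or sex covariate (sex read from Xist, high in 1 PBS heart and 2 ETX hearts), without PBS hearts 3 and 9, and without PBS heart 3 and ETX hearts 6 and 7 (5 to 10 at an unadjusted p under 0.05 in these 6 fits). Without 1 heart it ran from 0 to 1. The 11 pathway genes became 7 without a filter, 0 in the unmoderated test and in both fits that leave 1 heart in a group (33, 28 and 17 at an unadjusted p under 0.05), 1, 4 and 3 with the lung, atrial and sex covariates, and 2 to 6 without 1 heart. Calls over all genes, 533, were 909 with the median filter, 870 with the trend, 0 unmoderated (2738 at an unadjusted p under 0.05), 19 without PBS hearts 3 and 9, 2 without PBS heart 3 and ETX hearts 6 and 7, 80, 137 and 120 with the lung, atrial and sex covariates, and 94 to 241 without 1 heart. Of the 533, 363 were lower, against 459 of 584 with arrays centred and 312 of 535 after quantile normalization. Fits with fewer hearts or a covariate have fewer degrees of freedom, and a lone heart is assumed to vary like the others. For the other settings the cause was not tested. The median difference of the enzymes stayed between -0.062 and -0.010 in every setting. The sign of 24 of 37 enzymes was kept in all 6 fits without 1 heart, and 13, all uncalled, turned at least once. No paired analysis was possible because the groups share no replicate number.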
